A study of Rattus norvegicus with 6 samples.

Results

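No proteasome gene differed past the threshold between stiff and soft hydrogel in rat MSCs, the mesenchymal stem cells of bone marrow, which are known to give rise to bone, fat and cartilage. The genes described here were the protein-coding rows of the deposited table whose names begin with Psm, a letter from a to g and a number, and they came to 49 of 33589 rows. They comprised 19 core genes (Psma and Psmb), 20 regulatory genes (Psmc and Psmd), 4 activator genes (Psme) and 6 others that the name rule also takes in: Psmf1, the assembly chaperone genes Psmg1 to Psmg4, and Psmc3ip. The last is named for binding Psmc3 and acts in meiotic recombination, so it is not a proteasome subunit and is kept apart. Of the 49, 46 averaged at least 1 FPKM (read numbers scaled by gene length and library size) over the libraries and entered the test.

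MSCs in stiff hydrogel at 18 kPa were compared with MSCs in soft hydrogel at 2 kPa, with 3 libraries each. Both were kept for 48 h in the material that the labels name SA, in a low glucose medium with serum, and were then taken out of the gel for polyA RNA. The labels name no strain, age, sex or passage, and they do not say whether a replicate was a separate culture or animal, and all p-values therefore reflect the spread among these libraries alone, which may be technical. The comparison addresses how expression of the protein degradation machinery differs with the stiffness of the gel.

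The proteasome degrades proteins that carry ubiquitin chains. Its core particle is a barrel of stacked rings, with alpha subunits outside and beta subunits inside, and Psmb5, Psmb6 and Psmb7 encode the catalytic beta subunits. A regulatory particle, made of a base with ATPase subunits and a lid, binds the ubiquitin chain, removes it and feeds the unfolded protein into the core. Interferon induces alternative catalytic subunits, encoded by Psmb8, Psmb9 and Psmb10, which form the immunoproteasome, while the Psme genes encode activators that can cap the core in place of the regulatory particle.

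Each library held from 14966354 to 16711527 reads recovered from its FPKM, and the 49 genes held between 0.335% and 0.366% of them. Among the 46 tested genes, 36 averaged at least 500 reads per library and 2 under 100, namely Psmc3ip and Psmd10. Read numbers ran from 18 for Psmd10 to 4957 for Psmd2. The MSC markers Thy1, Cd44, Itgb1, Pdgfrb, Nt5e, Eng and Vcam1 were detected, while Lepr averaged 0.143 FPKM in stiff gel and 0.101 FPKM in soft gel. Leukocyte markers were present too. The 9 measured markers summed to between 316 and 331 FPKM in the stiff libraries and between 352 and 358 FPKM in the soft ones, none was at 0, and limma called 1 of them higher and 2 lower in stiff gel. Endothelial markers summed to at most 0.738 FPKM and erythroid ones to at most 1.33 FPKM in any library. In bulk RNA, fewer cells of a type and less RNA per cell cannot be told apart.

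None of the 46 tested proteasome genes passed limma's test over all genes at a Benjamini-Hochberg adjusted p of 0.05, where 1.43% of all 12713 tested genes did. The smallest adjusted p among them was 0.201, for Psmb4. An unadjusted p under 0.05 was reached by 5 of the 46 (Psmb4, Psmb2, Psmd8, Psmd13 and Psmb6), beside 15.4% of all tested genes, and voom on recovered reads also called none. On the log2(FPKM + 1) scale the 95% interval of the stiff over soft ratio lay within a 1.5-fold change in either direction for all 46 genes, with the lowest bound at 0.739 (Psmd10) and the highest at 1.40 (Psma3). By the same measure, 10926 of the 12713 tested genes lay within a 1.5-fold change. For low genes the added 1 pulls the ratio and its interval toward 1, as for Psmd10, which averaged 2.98 FPKM. A p that misses the threshold does not show that the levels were equal, and smaller differences lie inside these intervals.

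**Figure D1:**
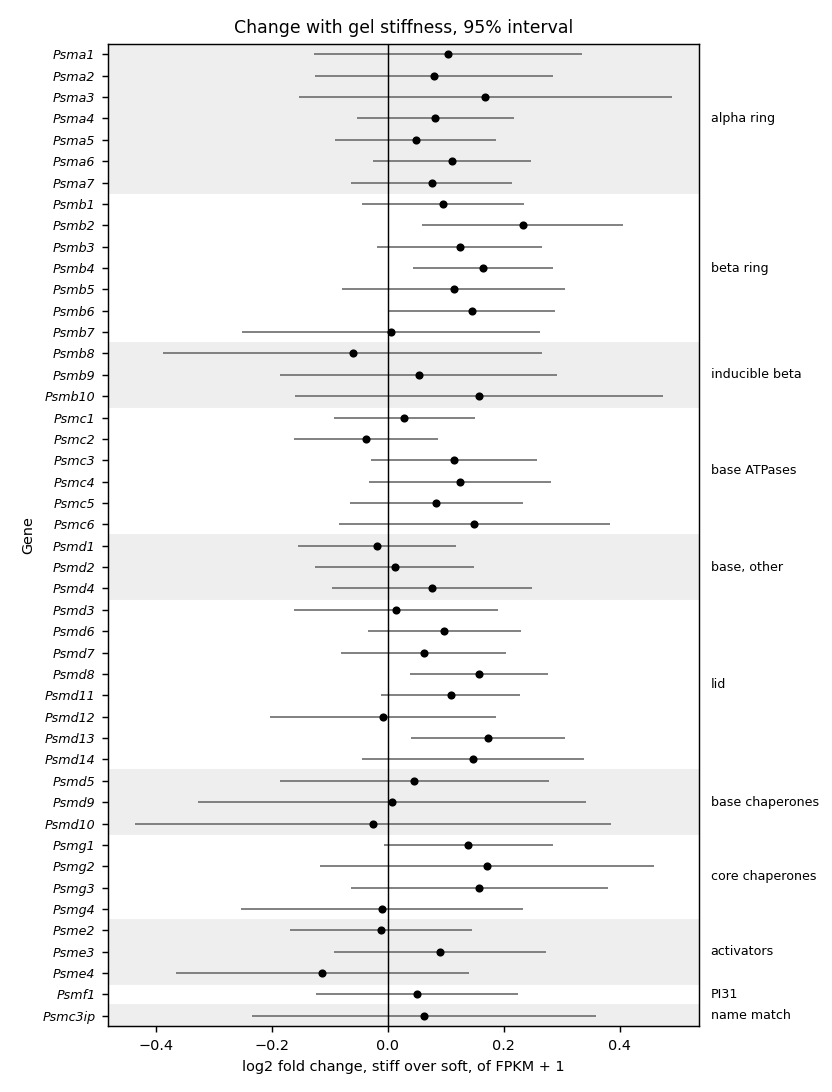
Log2 fold change of stiff over soft gel for the 46 tested proteasome genes, on the log2(FPKM + 1) scale (horizontal axis), grouped by role; points are limma estimates and bars their 95% intervals, with 3 libraries per group. Most points lie to the right of 0, between -0.11 and 0.23, and no gene passed the adjusted threshold.

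Most estimates had the same sign. Of the 46, 38 had a log2 fold change above 0 and the median was 0.08, against 50.4% of genes above 0 and a median of 0.00 over all tested genes. The 46 genes share the same 6 libraries, so their signs are not separate results. Without stiff replicate 3, or without soft replicate 3, 33 lay above 0, and without stiff replicate 2, 41 did. The count and the median also depended on how libraries were scaled. Deposited FPKM summed to between 467372 and 478304 in stiff libraries and between 452787 and 457306 in soft ones. With each library set to the same FPKM sum, 31 of 46 lay above 0 and the members' median was 0.04, while the median of all tested genes moved to -0.04. The distance between the 2 medians was thus 0.08 at either scaling, and 0.06 after quantile normalization. In 8 of the 46 genes all 3 stiff libraries lay above all 3 soft ones (Psma4, Psmb1, Psmb2, Psmb4, Psmd8, Psmd11, Psmd13 and Psmg1), and in none did all 3 lie below. Over all tested genes 11.7% were parted upward and 10.9% downward. At equal FPKM sums 4 of the 8 remained parted upward (Psmb4, Psmd8, Psmd11 and Psmd13) and Psmc2 became parted downward, where 7.91% of all tested genes were parted upward and 16.4% downward.

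**Figure D2:**
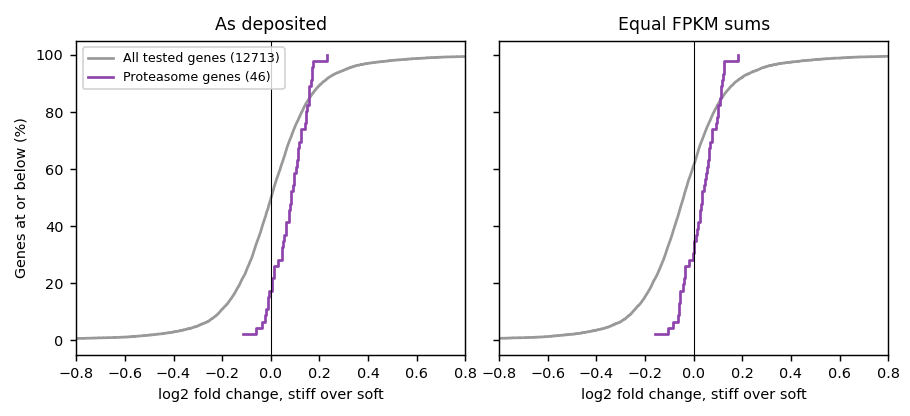
Percentage of genes (vertical axis) at or below each log2 fold change of stiff over soft gel (horizontal axis) for all 12713 tested genes (grey) and the 46 tested proteasome genes (purple), with FPKM as deposited on the left and at equal FPKM sums on the right. The proteasome curve is steeper and lies to the right of the grey one around 0 in both panels, with medians of 0.08 against 0.00 as deposited and 0.04 against -0.04 at equal sums.

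The alpha ring, which forms the gate of the core, spanned a wide range of levels per length. Its most abundant member was Psma7, at 131, 126 and 139 FPKM in stiff libraries 1 to 3, against 129, 119 and 127 FPKM in soft libraries 1 to 3. The groups overlapped (log2 fold change 0.08, SE 0.06, adjusted p = 0.594). Psma6 had the smallest p of the ring, with 87.0, 90.6 and 93.4 FPKM in stiff gel and 80.0, 82.4 and 88.6 FPKM in soft gel. Its soft replicate 3 exceeded stiff replicate 1, and the change was 0.11 (SE 0.06, adjusted p = 0.417). The lowest ring members were Psma4, which averaged 18.3 ± 0.671 FPKM in stiff gel and 17.2 ± 0.436 FPKM in soft gel (SD, n = 3 each), and Psma3. Psma3 had 27.9, 31.7 and 28.1 FPKM in stiff gel and 20.5, 28.1 and 30.0 FPKM in soft gel, so that soft replicate 1 was the lowest library. Both levels rest on gene models of 3909 and 3559 bases, while the other 5 expressed alpha genes had models of 874 to 1174 bases. In recovered reads Psma4 had 1025 to 1197 and Psma3 1222 to 1821, beside 875 to 1008 for Psma5 and 1792 to 2144 for Psma7. All 7 expressed alpha genes had estimates above 0, from 0.05 to 0.17. Psma8, an alpha subunit gene of the testis, was listed at 0 in every stiff library and in soft replicate 1, and had 5 and 2 reads in soft replicates 2 and 3.

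The constitutive beta ring held the most abundant proteasome gene and the member with the largest estimate. Psmb4, a structural subunit, was the most abundant, with 162, 150 and 165 FPKM in stiff libraries, against 143, 142 and 141 FPKM in soft ones. Every stiff library lay above every soft one, and the ratio of means was 1.12 (log2 fold change 0.16, SE 0.05, adjusted p = 0.201). With limma's array weights, which give noisier libraries less influence, Psmb4 passed as the only member (adjusted p = 0.0437), where 3.38% of all tested genes were called higher; over the other alternatives its adjusted p ran from 0.180 to 0.469. Psmb2 had the largest estimate of all members at 0.23, with 83.8, 75.2 and 89.4 FPKM in stiff gel and 67.9, 74.0 and 68.8 FPKM in soft gel (SE 0.07, adjusted p = 0.207). The groups did not overlap, although stiff replicate 2 and soft replicate 2 lay close. Psmb1 averaged 118.0 ± 1.86 FPKM in stiff gel and 110.6 ± 7.38 FPKM in soft gel, and Psmb3 104.6 ± 6.33 and 95.8 ± 3.62 FPKM (SD, n = 3 each). Over the whole constitutive ring the summed FPKM was 672, 627 and 701 in stiff libraries and 597, 610 and 610 in soft libraries, a ratio of means of 1.10, which was 1.06 when taken as a share of each library's FPKM.

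No catalytic subunit gene within that ring passed the threshold. Psmb5, the chymotrypsin-like subunit, had 78.2, 70.7 and 81.6 FPKM in stiff gel and 76.8, 64.5 and 71.5 FPKM in soft gel. Psmb6, the caspase-like subunit, had 90.7, 82.2 and 92.7 FPKM in stiff gel and 78.4, 82.8 and 78.4 FPKM in soft gel. Both pairs of groups overlapped, with log2 fold changes of 0.11 and 0.15 (adjusted p = 0.558 and 0.316). Psmb7, the trypsin-like subunit, had 38.1, 30.4 and 41.6 FPKM in stiff gel and 36.2, 37.6 and 35.0 FPKM in soft gel, so that stiff replicate 2 was the lowest of all 6. The model of Psmb7 overlaps Nek6 on the opposite strand, and since no source used here gives the handling of strand, this value is uncertain.

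The immunoproteasome subunits were expressed at lower levels per length than the subunits they replace. Psmb8, which replaces Psmb5, had 7.08, 6.80 and 8.33 FPKM in stiff gel and 7.15, 9.72 and 6.63 FPKM in soft gel (log2 fold change -0.06, SE 0.14, adjusted p = 0.884). Psmb9, which replaces Psmb6, had 12.2, 12.2 and 14.7 FPKM in stiff gel and 12.9, 13.6 and 11.1 FPKM in soft gel (0.05, SE 0.10, adjusted p = 0.857). Psmb10, which replaces Psmb7, had 17.3, 13.4 and 18.1 FPKM in stiff gel and 15.7, 12.2 and 15.4 FPKM in soft gel (0.16, SE 0.14, adjusted p = 0.636). In each of the 3 genes the groups overlapped. The ratio of Psmb8 to Psmb5 was 0.0963 ± 0.00576 in stiff gel and 0.112 ± 0.0333 in soft gel, that of Psmb9 to Psmb6 0.147 ± 0.0123 and 0.157 ± 0.0130, and that of Psmb10 to Psmb7 0.443 ± 0.00937 and 0.399 ± 0.0650 (SD, n = 3 each). They are ratios per length. The gene models had 2066 bases for Psmb8 and 873 for Psmb5, and 1520 for Psmb9 and 717 for Psmb6. Those of Psmb10 and Psmb7 had 996 and 1696 bases, and the Psmb7 level is itself uncertain. Soft replicate 2 stood apart in 2 of these ratios, with 0.151 for Psmb8 over Psmb5, where the other 5 libraries had 0.0906 to 0.102, and 0.324 for Psmb10 over Psmb7, where the others had 0.434 to 0.453. Without that library the stiff minus soft difference was 0.00339 in place of -0.0159 for Psmb8 over Psmb5, and 0.00585 in place of 0.0433 for Psmb10 over Psmb7. Leukocytes are known for high levels of these subunits, and of the leukocyte markers Cd68 was at 27.7 ± 1.52 FPKM in stiff gel and 40.4 ± 3.47 FPKM in soft gel, and Cd53 at 8.20 ± 0.439 and 12.6 ± 1.15 FPKM, while Adgre1 was at 84.9 ± 2.24 and 69.0 ± 1.85 FPKM; their part in the immunoproteasome values was not tested. Psmb11, the beta subunit of thymic epithelium, had at most 4 reads in any library.

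**Figure D3:**
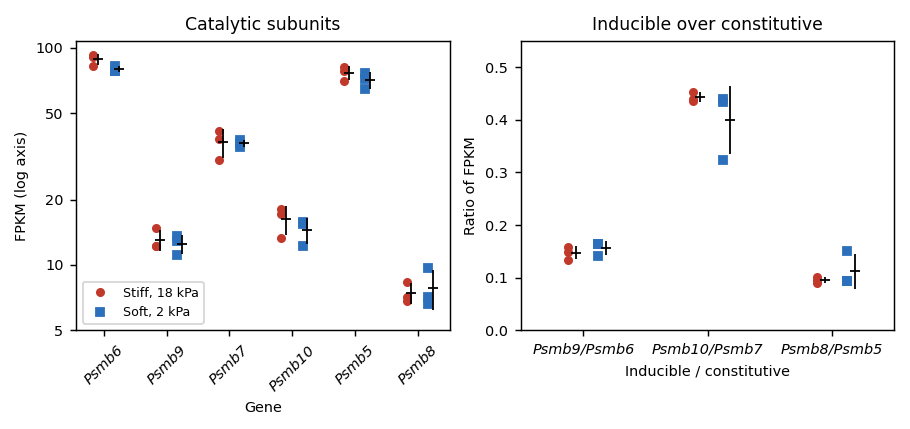
Left, FPKM on a log axis of the 3 constitutive catalytic subunit genes and the inducible gene that replaces each; right, the ratio of inducible to constitutive FPKM for the 3 pairs. Red circles are the stiff and blue squares the soft libraries, 3 each, and black marks give mean and SD; soft replicate 2 lies apart in the ratios of Psmb10 to Psmb7 (0.324) and Psmb8 to Psmb5 (0.151).

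In the table's coordinates, whose build is not named, Psmb9 (chromosome 20, 3973420 to 3978845, minus strand) and Psmb8 (3990613 to 3993769, plus strand) lie on either side of Tap1 (3979035 to 3989669). This gene encodes part of the transporter that supplies peptides made by the proteasome to MHC class I molecules. Tap1 had 15.5, 13.8 and 15.5 FPKM in stiff gel and 17.4, 15.8 and 14.8 FPKM in soft gel, and the groups overlapped as those of its neighbours did. Of 8 tested genes of antigen processing and interferon control none passed limma's test and none had an unadjusted p under 0.05. The ninth, Nlrc5, which drives MHC class I genes, was under the level filter and not tested, with 0.445, 0.410 and 0.385 FPKM in stiff gel and 0.737, 0.659 and 0.707 FPKM in soft gel. Every stiff library lay below every soft one, at 37 to 38 and 62 to 71 reads, beside 10.9% of all tested genes parted downward. With no level filter, no gene of this list was called. B2m, the light chain of MHC class I, was the most abundant of the list, with 431.5, 438.7 and 448.9 FPKM in stiff gel and 401.3, 437.2 and 444.7 FPKM in soft gel. Tapbp, which bridges that molecule to the transporter, had 23.0, 20.7 and 21.8 FPKM in stiff gel and 23.7, 19.2 and 20.5 FPKM in soft gel. Stiff and soft libraries overlapped for both genes.

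The base of the regulatory particle has 6 ATPases that unfold the substrate. Psmc3 led with 100.3, 101.3 and 96.9 FPKM in stiff gel, against 99.1, 87.1 and 89.8 FPKM in soft gel. The groups overlapped through soft replicate 1 (log2 fold change 0.11, SE 0.06, adjusted p = 0.432). The other ATPases averaged from 27.8 to 68.3 FPKM in stiff gel and from 25.1 to 66.9 FPKM in soft gel, and Psmc2 was the only one of the 6 with an estimate under 0 (-0.04). Psmd2, a scaffold subunit of the base, had 97.2, 90.9 and 99.2 FPKM in stiff gel and 100.2, 92.3 and 92.3 FPKM in soft gel, with an estimate of 0.01 and an interval of the ratio from 0.917 to 1.11. Psmd4, a ubiquitin receptor, had 58.4, 57.6 and 62.9 FPKM in stiff gel and 62.0, 52.6 and 55.3 FPKM in soft gel (0.08, adjusted p = 0.675).

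The lid removes ubiquitin chains through Psmd14, its deubiquitinase, which averaged 32.8 ± 1.78 FPKM in stiff gel and 29.6 ± 2.81 FPKM in soft gel (SD, n = 3 each). In this group Psmd8 had the smallest p, with 52.6, 51.7 and 54.9 FPKM in stiff gel and 47.8, 46.4 and 48.2 FPKM in soft gel. All stiff libraries lay above all soft ones, at a ratio of means of 1.12 (log2 fold change 0.16, SE 0.05, adjusted p = 0.209). The same separation was seen for Psmd13, at 57.1, 59.7 and 63.1 FPKM in stiff gel and 54.9, 52.4 and 51.8 FPKM in soft gel (0.17, adjusted p = 0.220), and for Psmd11, at 29.3, 28.0 and 28.7 FPKM and 26.8, 26.6 and 26.2 FPKM (0.11, adjusted p = 0.371). Psmd3, the most abundant lid gene, had 64.4, 56.8 and 61.9 FPKM in stiff gel and 65.9, 57.7 and 57.8 FPKM in soft gel (0.01, adjusted p = 0.957). Estimates of lid members ran from -0.01 for Psmd12 to 0.17 for Psmd13.

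Summed over the 20 regulatory genes, FPKM was 1013, 998 and 1048 in stiff libraries and 990, 964 and 966 in soft ones. The 19 core genes summed to 1185, 1159 and 1242 in stiff libraries and 1069, 1114 and 1126 in soft ones. In both sums every stiff library lay above every soft one, with ratios of means of 1.05 and 1.08. As a share of the library's FPKM the regulatory ratio was 1.01, at 0.216% ± 0.00316 in stiff gel and 0.214% ± 0.00434 in soft gel, and the core ratio 1.05, at 0.253% ± 0.00617 and 0.242% ± 0.00531 (SD, n = 3 each). On that scale the core sums stayed narrowly apart, with 0.2535%, 0.2472% and 0.2596% in stiff libraries and 0.2361%, 0.244% and 0.2463% in soft libraries. Stiff replicate 2 lay just above soft replicate 3. The regulatory sums overlapped, with 0.217%, 0.213% and 0.219% in stiff libraries and 0.219%, 0.211% and 0.211% in soft libraries.

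**Figure D4:**
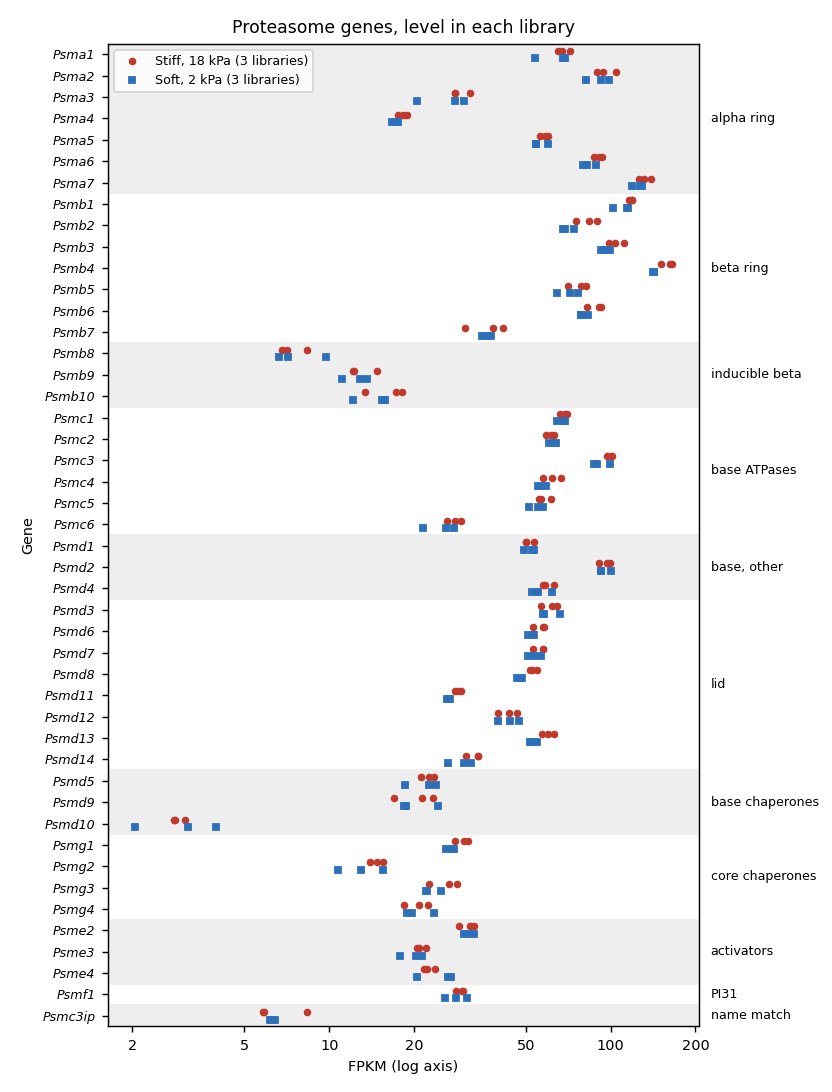
FPKM on a log axis of each of the 46 tested proteasome genes in every library, ordered by role; red circles are the 3 stiff and blue squares the 3 soft libraries. The alpha and constitutive beta subunits lie between 16.7 and 165 FPKM and the inducible beta subunits between 6.63 and 18.1 FPKM.

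Chaperones that build the particle were lower than most subunits. Psmg1, which helps form the alpha ring together with Psmg2, had 30.2, 28.0 and 31.2 FPKM in stiff gel and 27.7, 27.2 and 26.0 FPKM in soft gel, with no overlap (log2 fold change 0.14, SE 0.06, adjusted p = 0.347). Psmg2 averaged 14.8 ± 0.806 and 13.1 ± 2.42 FPKM, Psmg3 26.0 ± 2.96 and 23.1 ± 1.65 FPKM, and Psmg4 20.5 ± 2.04 and 20.7 ± 2.49 FPKM in stiff and soft gel (SD, n = 3 each). Of the chaperones of the base, Psmd5 had 21.1, 23.5 and 22.6 FPKM in stiff gel and 18.6, 24.0 and 22.7 FPKM in soft gel, while Psmd9 had 23.44, 16.95 and 21.35 FPKM in stiff gel and 24.26, 18.73 and 18.40 FPKM in soft gel. Psmd10 (gankyrin) was the least abundant of the tested genes at 2.90 ± 0.145 FPKM in stiff gel and 3.05 ± 0.960 FPKM in soft gel.

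Pomp, the maturation factor that closes assembly of the core, was listed at 0.685 ± 0.136 FPKM in stiff gel and 0.805 ± 0.0596 FPKM in soft gel, under the level filter. A second row, LOC100911238, is annotated as like the proteasome maturation protein and had 30.2, 77.9 and 68.5 FPKM in stiff gel and 38.2, 27.6 and 24.2 FPKM in soft gel (log2 fold change 0.87, SE 0.34, adjusted p = 0.295). Both rows lie on chromosome 12, at 8746855 to 8759599 and 8976585 to 8989214. Stiff replicate 1 lay under soft replicate 1, and near-identical copies may split reads between them, so the level of the maturation factor is uncertain in these data.

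Psme1 and Psme2 encode the partner subunits of one activator ring and are induced by interferon. Psme2 had 32.8, 28.9 and 31.7 FPKM in stiff gel and 32.7, 31.3 and 30.0 FPKM in soft gel (log2 fold change -0.01, adjusted p = 0.961). Psme1 was listed at 0 in 4 libraries and had a single read in stiff replicate 2 and in soft replicate 3. In the table's coordinates Psme1 (chromosome 15, 34256071 to 34258947, plus strand) overlaps Emc9 (34256374 to 34263224) on the opposite strand, and Emc9 was itself at 0.868 ± 0.117 FPKM in stiff gel and 0.737 ± 0.110 FPKM in soft gel (SD, n = 3 each). Because of that overlap the Psme1 value is uncertain and is not read as a lack of expression. Psme3, which forms a nuclear activator, had 20.5, 22.0 and 20.9 FPKM in stiff gel and 17.8, 21.4 and 20.4 FPKM in soft gel (log2 fold change 0.09, adjusted p = 0.635). Its model overlaps AC123346.1 on the same strand, which adds uncertainty.

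Psme4, the large single-chain activator known for chromatin and spermatogenesis, had the lowest estimate of the tested members. It had 22.2, 23.8 and 21.6 FPKM in stiff gel and 20.5, 27.0 and 26.4 FPKM in soft gel. Soft replicate 1 was the lowest of all 6 libraries and soft replicates 2 and 3 the highest, so the groups overlapped (log2 fold change -0.11, SE 0.11, adjusted p = 0.667). The estimate was -0.24 without soft replicate 1 (adjusted p = 0.160), -0.04 without soft replicate 2 (adjusted p = 0.885) and -0.06 without soft replicate 3 (adjusted p = 0.881). Psmf1, which encodes PI31, a binding partner of the core first described as an inhibitor, had 28.3, 30.0 and 29.7 FPKM in stiff gel and 28.3, 30.9 and 25.8 FPKM in soft gel (0.05, adjusted p = 0.802). Psmc3ip was at 6.68 ± 1.42 FPKM in stiff gel and 6.28 ± 0.122 FPKM in soft gel (SD, n = 3 each).

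Libraries of the same group also differed among themselves. Of the 46 tested genes, soft replicate 1 was the lowest soft library in 19 (41.3%) and the highest in 17 (37.0%), beside 39.8% and 41.1% of all tested genes. It lay farthest below the other soft libraries for Psmd10 (by -0.58 on the log2 scale), Psma3 (-0.49), Psmg2 (-0.37), Psme4 (-0.37) and Psma1 (-0.33), and farthest above for Psmd9 (0.37), Psmg4 (0.28) and Psmd4 (0.20). In stiff gel, replicate 2 was the lowest in 26 of 46 genes (56.5%) and replicate 3 the highest in 27 (58.7%), beside 36.0% and 33.3% of all tested genes. Genes on which soft replicate 1 lay low tended to be those on which stiff replicate 2 lay high, and the reverse. In 76.1% of the members these 2 deviations had opposite signs, which was also so in 66.9% of all tested genes. The pooled SD within groups had a median of 0.0949 on the log2 scale over the members and 0.114 over all tested genes.

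**Figure D5:**
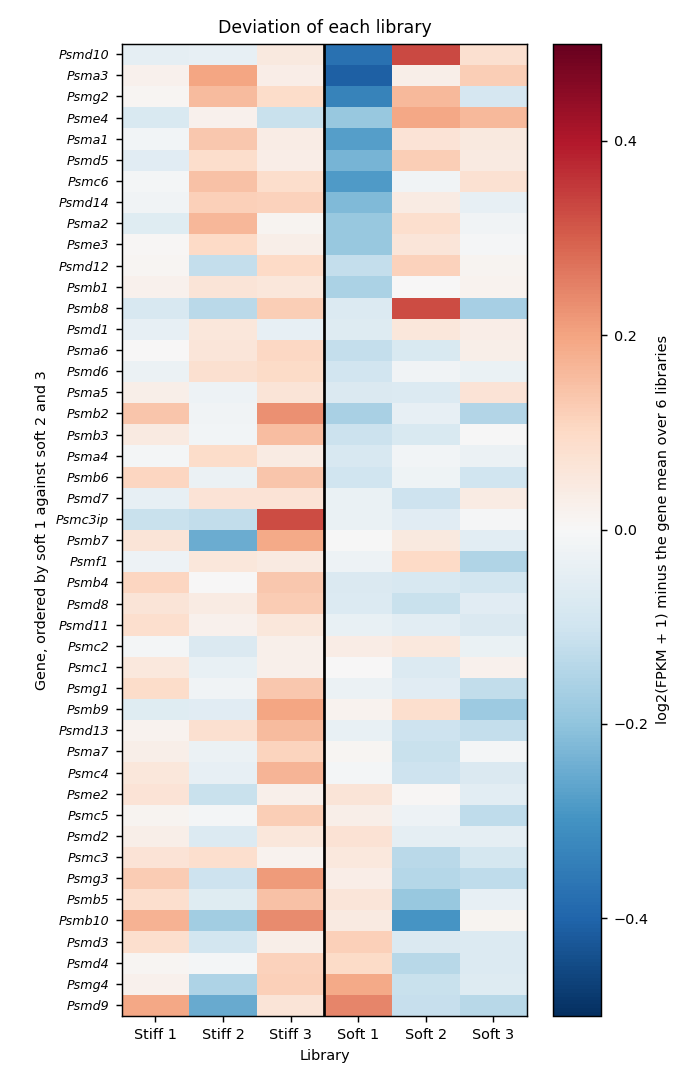
Deviation of each library (columns, stiff then soft) from the gene's mean over 6 libraries, in log2(FPKM + 1), for the 46 tested proteasome genes (rows), ordered by how far soft replicate 1 lay below the other soft libraries; red is above and blue below the mean. Soft replicate 1 is blue at the top (Psmd10, Psma3, Psmg2) and red at the bottom (Psmd9, Psmg4), where stiff replicate 2 is blue.

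Promoter sequences were available from RefSeq (build GRCr8, 250 bases before to 50 after the start) for 44 of the 49 genes by symbol, and were searched on both strands for 5 short motifs. Proteasome genes are known to be induced together by the factor NRF1 (gene Nfe2l1) through antioxidant response elements, and the immunoproteasome genes by interferon through response elements of the ISRE type. The antioxidant core TGACNNNGC was found in 8 of the 44 member promoters (18.2%) and in 12.1% of all 33469 promoters. That background was not matched to the members in expression or base content, here or for the other motifs. The ISRE-like GAAANNGAA was found in 9 (20.5%, against 9.71%), the NF-Y box CCAAT in 22 (50%, against 37.5%), the GC box GGGCGG in 32 (72.7%, against 33.1%) and the YY1-type AAGATGGCG in 7 (15.9%, against 1.73%). Matches overlapped another motif in Psmb2 alone, where the antioxidant core runs into a CCAAT and a GGGCGG, and a match is a description of letters, not a site. Carriers of the antioxidant core were Psmb2 (log2 fold change 0.23), Psma3 (0.17), Psmb6 (0.15), Psmb5 (0.11), Psmd3 (0.01), Psmd9 (0.01), Psmd1 (-0.02) and Psme4 (-0.11). The ISRE-like motif was in the interferon-inducible Psmb8, Psmb10 and Psme2, but not in Psmb9 or Psme1. It was also in Psma4, Psmb2, Psmb3, Psmd7, Psmd11 and Psmg4. A link between motifs and estimates was not tested. Below are stretches of up to 49 bases upstream of the start, on the gene's strand, with the match in capitals. They show the antioxidant core in the catalytic subunit genes Psmb5 and Psmb6 and in Psmb2, and the ISRE-like motif in Psmb10 and Psme2.
Psmb5, antioxidant core, chr15:32047411-32047459, minus strand: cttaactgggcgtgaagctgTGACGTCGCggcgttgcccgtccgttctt
Psmb6, antioxidant core, chr10:55737844-55737887, plus strand: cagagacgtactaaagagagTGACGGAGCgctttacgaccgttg
Psmb2, antioxidant core, chr5:144254970-144255018, plus strand: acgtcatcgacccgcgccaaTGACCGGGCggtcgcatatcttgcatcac
Psmb10, ISRE-like, chr19:50743337-50743385, minus strand: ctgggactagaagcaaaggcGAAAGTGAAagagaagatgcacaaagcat
Psme2, ISRE-like, chr15:33052776-33052824, minus strand: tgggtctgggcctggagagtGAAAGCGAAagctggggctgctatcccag

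Genes that act with the proteasome were read from 5 lists. In all, 37 of 40 listed genes were tested and none passed limma's test in either direction. An unadjusted p under 0.05 was reached by 1 of the 37, beside 15.4% of all tested genes. Estimates lay above 0 in 28, beside 50.4% of all tested genes, and the median log2 fold change was 0.05. Nfe2l1, whose product drives proteasome genes, had 83.5, 80.5 and 78.6 FPKM in stiff gel and 85.4, 76.5 and 79.7 FPKM in soft gel (0.01, adjusted p = 0.972). Its relative Nfe2l2, the antioxidant regulator, had 92.3, 99.0 and 97.7 FPKM in stiff gel and 80.3, 92.4 and 90.4 FPKM in soft gel (0.14, adjusted p = 0.387). Nfe2l1 did not separate the gels, and in Nfe2l2 stiff replicate 1 lay under soft replicate 2.

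Among subunits and partners named outside the Psm series, Adrm1, a ubiquitin receptor of the base, had 76.2, 69.0 and 80.2 FPKM in stiff gel and 84.9, 62.3 and 73.3 FPKM in soft gel, and Zfand5, which stimulates the particle, had 63.9, 72.6 and 65.5 FPKM and 49.0, 67.6 and 68.2 FPKM. The groups overlapped in both. Vcp, the unfoldase that delivers substrates, had 163.4, 167.4 and 165.1 FPKM in stiff gel and 157.2, 162.6 and 158.9 FPKM in soft gel (0.05, adjusted p = 0.631). These groups did not overlap as deposited, but quantile normalization gave an estimate of -0.015 and equal FPKM sums one of 0.0016. Rad23b, a shuttle receptor, had 78.5, 71.2 and 73.7 FPKM in stiff gel and 71.3, 72.0 and 68.5 FPKM in soft gel, with overlap at stiff replicate 2. Rps27a, which encodes ubiquitin fused to a ribosomal protein, had 637.4, 667.8 and 694.6 FPKM in stiff gel and 200.2, 280.7 and 694.3 FPKM in soft gel (0.97, SE 0.40, adjusted p = 0.308). Soft replicate 3 was as high as the stiff libraries. The estimate was 1.49 without that library (adjusted p = 0.0190), 0.59 without soft replicate 1 (adjusted p = 0.465) and 0.31 with array weights (adjusted p = 0.673). Ribosomal protein genes have many processed copies that can share reads, so the level of Rps27a is uncertain.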

How the data were processed

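PolyA RNA of 6 libraries was analysed from 1 deposited table; the design text speaks of quadruplicates, and 3 libraries per group were analysed here. The authors' FPKM per gene are the deposited values; per the submitters' processing notes, Bowtie 0.12.9, Cufflinks 2.1.1 and HTSeq were used, with no roles given, and the mouse builds mm10 and GRCm38 are named, although the identifiers in the table are those of rat Ensembl genes and it names no build. Multiplied by gene length, 100% of the values in each library were whole steps to within 0.001, and these steps were taken as reads; 3 reads on 1 kb corresponded to 0.179 to 0.201 FPKM. The 12713 genes averaging 1 FPKM or more were tested as log2(FPKM + 1) in limma 3.58.1 (R 4.3.3) on the gel group alone, with a trend of variance on level, two-sided, at a Benjamini-Hochberg adjusted p of 0.05 over all of them. A fold change on this scale understates that of low genes. The script was tested on simulated data. Libraries of a group differed beyond sampling noise (chi-square per degree of freedom of at least 3.71). An exact permutation test of 3 against 3 libraries cannot reach less than p = 0.1 and was not used. Alternatives changed pseudocount, filter, scaling, variance model, weights, genes tested and unit (voom), blocked on replicate number, and dropped 1 library at a time. Values in every library are given for the member with the smallest p and the most abundant member of each role group, Psmb5 to Psmb10, the activators and Psmf1, and for the most abundant genes of 5 lists, of which 1 is not reported here; Psma3, Psmb2, Psmd9, Psmd11, Psmd13, Tap1, Nlrc5, LOC100911238, Emc9 and the leukocyte markers were chosen after their values were seen and have no single-gene alternatives. Members, lists and motifs were chosen with earlier results of these data known. The authors' gene length column (other numbers, in bases) is as deposited. Promoters were matched to RefSeq by symbol.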

Additional observations from a re-analysis of the deposited data

How the results depend on the processing

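No tested proteasome gene was called under any alternative except array weights, which called 1 (Psmb4); no gene of the pathway lists was called except without soft replicate 3 (1, Rps27a). The count over all tested genes, 182, became 92 with no level filter, 112 without the variance trend, 685 with array weights, 327 with voom and 26 to 159 when 1 library was left out. The members' median was 0.0353 at equal FPKM sums and 0.07 to 0.10 with 1 library left out. Core and regulatory sums, 1.08 and 1.05 stiff over soft, were 1.05 and 1.01 at equal FPKM sums. With the replicate number as a block 105 genes and no member were called. Same-numbered libraries had deviations correlated at 0.055, 0.116 and -0.078. Stiff replicates 1 and 2 went best with the soft library of their own number, while stiff replicate 3 went best with soft replicate 1 (0.137). Deviations from a group mean of 3 libraries are tied to each other, so these small values cannot show whether the numbers pair the samples. Over all 46 members, 38 estimates were above 0 as deposited, 34 after quantile normalization and 31 at equal FPKM sums. Among the genes named by rule alone, the sign turned in 42 results, none of them called. At equal FPKM sums these genes were Adrm1 (-0.0092), B2m (-0.0084), Nfe2l1 (-0.042), Psmb7 (-0.043), Psmd2 (-0.037), Psmd3 (-0.035) and Psmd5 (-0.0016); after quantile normalization B2m (-0.045), Nfe2l1 (-0.045), Psmb7 (-0.014), Psmd2 (-0.048), Psmd3 (-0.028) and Vcp (-0.015); with array weights B2m (-0.0070), Psmb8 (0.027), Psmd5 (-0.038), Psme2 (0.050) and Zfand5 (-0.0088). With 1 library left out the ranges that cross 0 were -0.072 to 0.15 for Adrm1, -0.0042 to 0.070 for B2m, -0.029 to 0.050 for Nfe2l1, -0.089 to 0.13 for Psmb7, -0.16 to 0.087 for Psmb8, -0.031 to 0.11 for Psmb9, -0.085 to 0.14 for Psmc3ip, -0.014 to 0.051 for Psmd2, -0.025 to 0.077 for Psmd3, -0.059 to 0.12 for Psmd5, -0.049 to 0.040 for Psme2, -0.012 to 0.11 for Psmf1, -0.012 to 0.13 for Tapbp and -0.014 to 0.22 for Zfand5 (0.14 with all libraries). Without crossing 0, estimates moved by over 1.5 times for Psma7 (0.04 to 0.11), Psmb5 (0.05 to 0.17), Psmb10 (0.05 to 0.28), Psmd4 (0.03 to 0.14), Psme3 (0.02 to 0.14), Psme4 (-0.24 to -0.04), Psmc3 (0.08 to 0.17), Nfe2l2 (0.07 to 0.17), Rad23b (0.04 to 0.11) and Rps27a (0.59 to 1.49). The cause was not tested. Depth limits Psmd10 and Psmc3ip, with under 100 reads per library on average.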
